A study of Mus musculus with 4 samples.

Results

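The limb T-box factors are 6 transcription factor genes, Tbx2, Tbx3, Tbx4, Tbx5, Tbx15 and Tbx18, taken by gene name from a table of 17568 genes. All 6 were in the table, and all 6 passed the filter on low values, in which a gene needed a mean of at least 1 CPM (normalized counts per 1000000 reads) over the libraries. Forelimbs came from Swiss Webster embryos of wild-type genotype at E10.25 (31 to 34 somites) and were cultured with cyclopamine or under control conditions. Cyclopamine is a plant alkaloid that blocks Smoothened, a membrane protein through which Hedgehog ligands act. There were 2 libraries per condition, and nothing in the labels says that they came from separate embryos or cultures. The sources used here give no dose, vehicle, culture length or number of limbs pooled. P-values therefore measure only the spread between these libraries, which may be technical.

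T-box proteins bind DNA through a shared domain, the T-box, and act as activators or repressors of transcription. In the limb, TBX5 starts forelimb outgrowth by switching on Fgf10, and TBX4 plays the matching part in the hindlimb. TBX2 and TBX3 are mainly repressors, made along the anterior and posterior margins of the bud and in other places downstream of BMP signals, and TBX3 takes part in posterior patterning with HAND2 and GLI3. TBX15 and TBX18 are closely related repressors of limb bud mesenchyme. TBX15 is needed for the shoulder blade and other skeletal parts, and TBX18 is best known from the somites, the ureter and the epicardium.

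The libraries held 12962633 and 12010965 gene-assigned reads in cyclopamine, against 9779589 and 13555492 reads in control. The treatment was visible in the Hedgehog targets. Gli1, a transcription factor gene induced by the pathway, measured 8.05 and 4.70 CPM in cyclopamine and 56.2 and 56.7 CPM in control (log2 fold change -3.10, SE 0.23, limma adjusted p = 4.32e-06). Ptch1, the Hedgehog receptor gene and a target of the pathway, measured 51.3 and 32.2 CPM in cyclopamine, against 116 and 107 CPM in control, and also fell (log2 fold change -1.44, SE 0.19, limma adjusted p = 0.00216). In limma (a linear model with a variance trend, fitted to log2(CPM + 0.5) of 13568 genes), 38 genes passed at an adjusted p under 0.05: 6 rose (0.0442%) and 32 fell. Without that trend the calls of Gli1 and Ptch1 ended (limma adjusted p = 0.0732 and 0.310). The call of Ptch1 also ended without the filter on low values (limma adjusted p = 0.199). As a check of the forelimb label, Tbx5 exceeded Tbx4 per kb of exon in all 4 libraries, by 14.8 to 29.6 times. The 8 listed mesenchyme markers were all detected and summed to 1507 and 1645 CPM in cyclopamine and 1461 and 1461 CPM in control. Marker lists of other tissues differed between libraries. Neural markers summed to 8.84 and 10.29 CPM in cyclopamine, against 45.4 and 79.3 CPM in control, with Ina, Neurod4 and Olig3 at 0 in both cyclopamine libraries. Heart and epicardium markers summed to 31.4 and 141 CPM in cyclopamine, against 28.9 and 56.1 CPM in control. Embryonic blood markers summed to 2113 and 1239 CPM in cyclopamine, against 1290 and 597 CPM in control.

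None of the limb T-box genes passed the test: 0 of 6 did in limma, where 0.28% of all genes tested passed. The quasi-likelihood test of edgeR and DESeq2, both on recovered reads, also called 0 of 6. At an unadjusted p under 0.05, limma marked 1 of the 6, Tbx18, where 5.82% of all genes were marked, 3.04% higher and 2.78% lower. The log2 fold changes ran from -0.11 to 0.35, with 4 above 0 and 2 below 0. Their median was 0.10, beside a median of 0.00455 over all genes tested. The median size of change without regard to sign was 0.13 for the 6 genes and 0.14 for all genes tested. In bulk tissue, fewer cells that express a gene cannot be told apart from less RNA per cell.

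**Figure D1:**
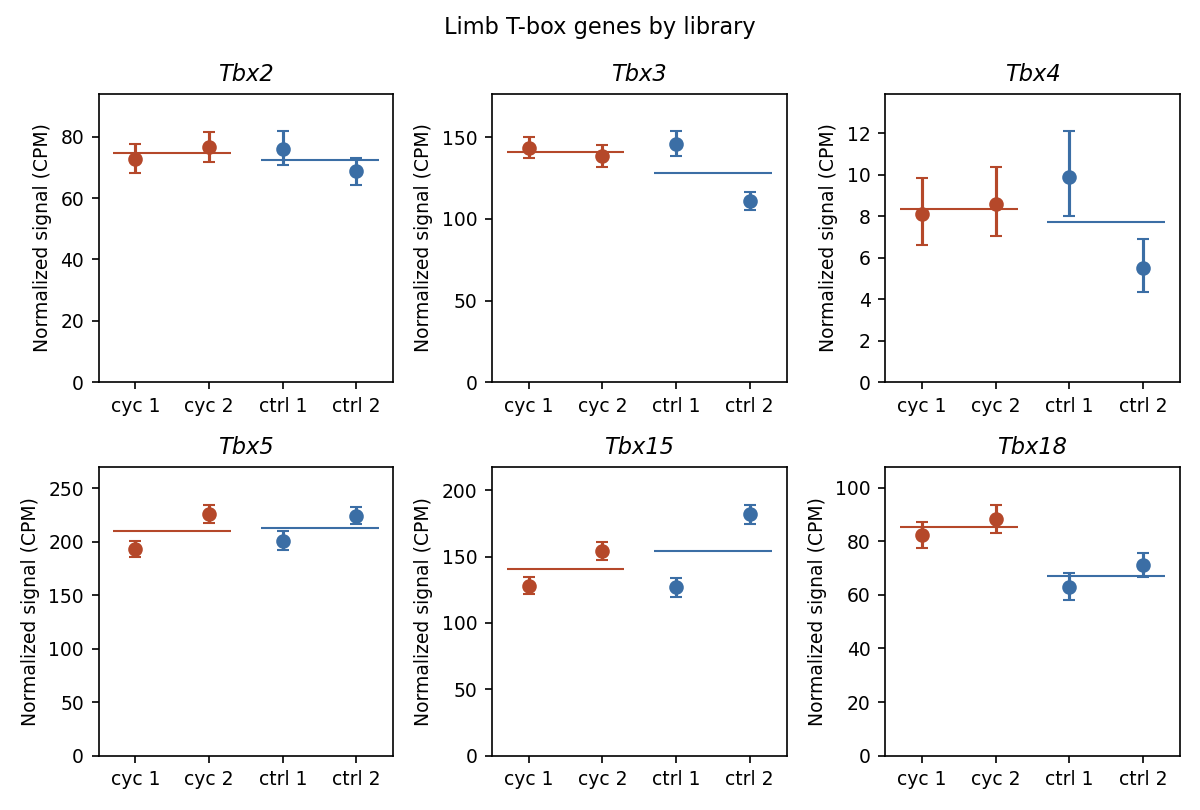
Normalized signal (CPM) of each limb T-box gene in the 4 libraries, cyclopamine (cyc) left and control (ctrl) right, with 95% Poisson intervals for counting error only; horizontal lines are group means. Tbx18 is the gene whose libraries do not overlap between groups, at 82.2 and 88.2 CPM in cyclopamine and 62.9 and 71.0 CPM in control. Over all genes tested, both cyclopamine libraries lay above both controls for 16.8% and below both for 15.8%.

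Tbx5, the forelimb gene, lies on chromosome 5 at 119832668 to 119885219 (mm10, plus strand). It measured 193 and 226 CPM in cyclopamine, against 201 and 224 CPM in control, so the groups interleaved. The means were 210 ± 23.3 CPM in cyclopamine and 213 ± 16.6 CPM in control (SD, n = 2 each). The log2 fold change was -0.02 (SE 0.15, limma adjusted p = 0.9996), with a 95% interval from -0.35 to 0.31. That interval spans 21.7% lower to 23.7% higher, before any adjustment for the number of genes. A change of 0.77 on the log2 scale would have been needed to pass with this standard error.

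By value, the libraries ranked in the same order for Tbx5 as for Myh6, Myh7 and Tnnt2 of the heart and epicardium list. The list's other measured genes, Actc1, Nppa, Wt1 and Tcf21, did not share this order. For Tbx5 the order was only partly resolved. Its counting intervals overlapped between cyclopamine 2 (218 to 235 CPM) and control 2 (216 to 232 CPM). They also overlapped between cyclopamine 1 (186 to 201 CPM) and control 1 (192 to 210 CPM). How common this order is among all genes was not tested. Myh6, a heart muscle myosin gene, was at 0 in cyclopamine 1 and 33.9 CPM in cyclopamine 2, against 1.55 and 6.69 CPM in control. Tnnt2, the cardiac troponin T gene, measured 0.552 and 7.86 CPM in cyclopamine, against 1.24 and 3.31 CPM in control. Tbx5 is also a heart gene, so those values stand beside it, and their part in its level was not tested. Without cyclopamine 2 the log2 fold change of Tbx5 was -0.14, and without cyclopamine 1 it was 0.09. Wt1, which marks epicardium among other tissues, differed little, at 12.5 and 14.3 CPM in cyclopamine and 13.3 and 13.0 CPM in control.

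Tbx4, the hindlimb counterpart, lies on chromosome 11 at 85886422 to 85916097 (mm10, plus strand). It had 103 and 106 reads in cyclopamine and 96 and 75 reads in control. These are 8.13 and 8.59 CPM in cyclopamine, against 9.90 and 5.51 CPM in control, where the controls lie on both sides of the treated libraries. All 4 libraries were well above the floor of 3 reads, which is 0.22 to 0.31 CPM. The 95% counting intervals were 8.02 to 12.1 CPM in control 1 and 4.33 to 6.91 CPM in control 2, so the controls differed beyond counting error. The log2 fold change was 0.16 (SE 0.29, limma adjusted p = 0.9996), and the 95% interval ran from -0.45 to 0.78. Without control 1 it was 0.56, and without control 2 it was -0.23. A change of 1.44 would have been needed to pass, the largest of the 6 genes, so a 2-fold change of Tbx4 would not have passed with this standard error.

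Other hindlimb genes were present at low levels beside it. Pitx1, the hindlimb factor upstream of Tbx4, measured 1.58 and 2.35 CPM in cyclopamine, against 2.17 and 0.22 CPM in control. Isl1, which acts early in the hindlimb field and in other tissues, measured 1.499 and 2.51 CPM in cyclopamine and 3.405 and 2.35 CPM in control. Hoxc10 measured 1.26 and 1.78 CPM in cyclopamine, against 1.65 and 0.955 CPM in control. Control 2 was the lowest library for Tbx4, Pitx1 and Hoxc10, but not for Isl1.

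Tbx2 lies 53.9 kb upstream of Tbx4 on the same strand of chromosome 11, at 85832551 to 85841948, from start to start. It measured 72.7 and 76.6 CPM in cyclopamine, against 76.1 and 68.7 CPM in control. All 4 libraries fell within a narrow band, and the log2 fold change was 0.04 (SE 0.15, limma adjusted p = 0.9996). The 95% interval ran from -0.28 to 0.36, which is 17.4% lower to 28.7% higher.

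Tbx3 lies 162 kb upstream of Tbx5 on chromosome 5, at 119670669 to 119684724 on the plus strand. It measured 143 and 138 CPM in cyclopamine, against 146 and 111 CPM in control. Control 2 was low and the other 3 libraries lay close together. The log2 fold change was 0.15 (SE 0.16, limma adjusted p = 0.9996), with a 95% interval from -0.19 to 0.49. It was 0.35 without control 1 and -0.05 without control 2. The controls differed from each other by -0.40 on the log2 scale (control 2 minus control 1), more than the difference between the groups. Annotated exons of Tbx3 overlap Tbx3os1 on the other strand, and no source used here says if counting was strand-specific, so reads of the 2 genes may be mixed. Control libraries also held more neural marker signal, as given above, and its part in Tbx2 and Tbx3 was not tested.

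Tbx15 lies on chromosome 3 at 99240381 to 99354259 (mm10, plus strand). It measured 128 and 154 CPM in cyclopamine, against 127 and 182 CPM in control. Cyclopamine 2 and control 2 were the high libraries, and the groups overlapped. The log2 fold change was -0.11 (SE 0.18, limma adjusted p = 0.9996), with a 95% interval from -0.49 to 0.26. Control 2 exceeded control 1 by 0.52 on the log2 scale, and cyclopamine 2 exceeded cyclopamine 1 by 0.27. The direction depended on the libraries, from -0.37 without control 1 to 0.15 without control 2.

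Tbx18 lies on the minus strand of chromosome 9 at 87702800 to 87731260 (mm10). It measured 82.2 and 88.2 CPM in cyclopamine, against 62.9 and 71.0 CPM in control, from 1042 and 1089 reads in cyclopamine and 610 and 966 reads in control. Both cyclopamine libraries lay above both controls, as they did for 16.8% of all genes tested. The means were 85.2 ± 4.27 CPM in cyclopamine and 67.0 ± 5.68 CPM in control (SD, n = 2 each). The log2 fold change was 0.35 (SE 0.15), with a 95% interval from 0.03 to 0.67. Limma gave an unadjusted p of 0.0361 and an adjusted p = 0.807, so Tbx18 did not pass. Among all genes tested, 16.7% had a change at least as large in either direction. In the authors' deposited table its log2 fold change is 0.35 with a false discovery rate of 0.892.

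The direction of Tbx18 was positive in every fit tried, from 0.26 without control 1 to 0.43 without control 2. The smallest adjusted p of these fits, 0.161, came with a block for the replicate number. Exons of Tbx18 overlap those of D030062O11Rik on the other strand, with the same limit as for Tbx3. The 8 mesenchyme markers went both ways, with 6 log2 fold changes above 0 and 2 below 0, a median of 0.16 and 0 that passed in limma. Prrx1, a homeobox gene of limb mesenchyme, measured 645 and 783 CPM in cyclopamine and 560 and 624 CPM in control (log2 fold change 0.27, SE 0.18, limma adjusted p = 0.989). Hoxd10, a HOX gene of the distal limb, measured 125 and 90.1 CPM in cyclopamine, against 176 and 123 CPM in control (log2 fold change -0.47, SE 0.19, limma adjusted p = 0.739). The part of these markers in the level of Tbx18 was not tested.

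**Figure D2:**
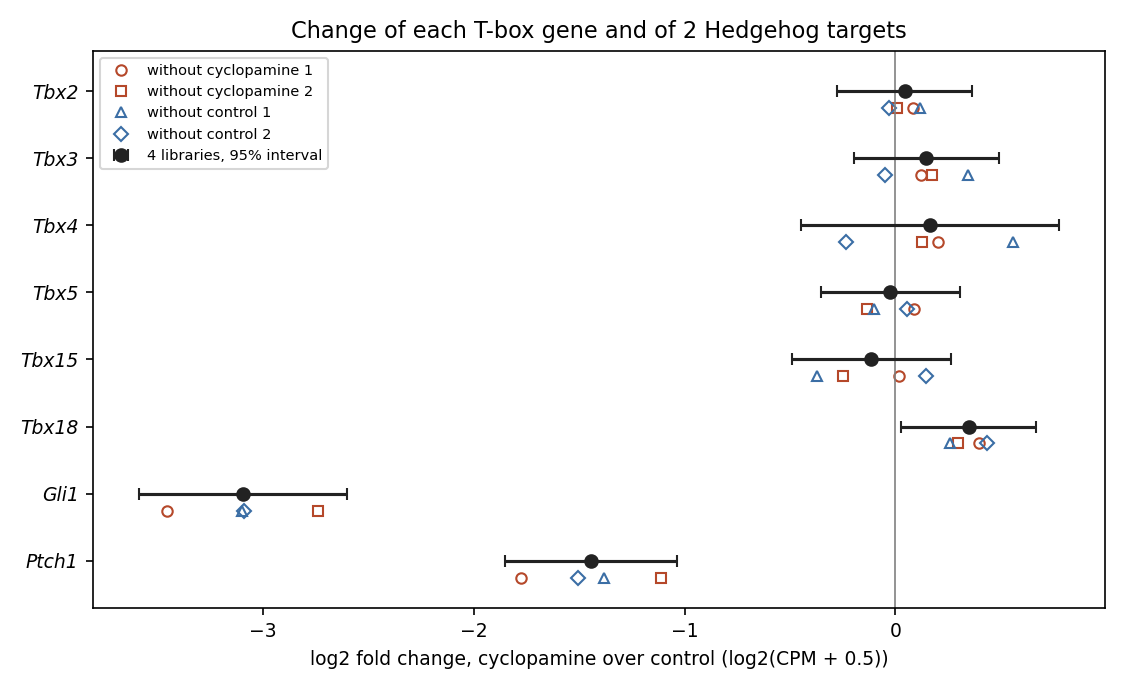
Log2 fold change of cyclopamine over control on log2(CPM + 0.5) for the 6 T-box genes and, for scale, the Hedgehog targets Gli1 and Ptch1; filled points use 4 libraries with 95% intervals, open symbols leave out the library named. The intervals of Tbx2, Tbx3, Tbx4, Tbx5 and Tbx15 include 0, and that of Tbx18 runs from 0.03 to 0.67, while Gli1 lies at -3.10.

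Promoters are shown for Tbx18 and Tbx4, the genes with a RefSeq window among the sequences used here, so that their start regions can be read beside their values. Each window runs from 250 bases before to 50 bases after the RefSeq start site and is written along the gene's own strand (RefSeq, GRCm38.p6). These are 2 of the 6 genes. Tbx18 is at chr9:87731211-87731510 on the minus strand, and Tbx4 is at chr11:85896515-85896814 on the plus strand. The Tbx4 window starts its transcript 10343 bases downstream of the first annotated start of the gene, so it shows a later start site. Capitals mark the only match to the motifs searched.
Tbx18: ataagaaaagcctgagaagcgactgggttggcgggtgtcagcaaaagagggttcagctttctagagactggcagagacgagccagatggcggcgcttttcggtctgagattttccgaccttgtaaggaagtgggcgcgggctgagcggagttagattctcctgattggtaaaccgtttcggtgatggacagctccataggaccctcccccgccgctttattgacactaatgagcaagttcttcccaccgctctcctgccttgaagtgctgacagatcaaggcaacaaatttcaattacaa
Tbx4: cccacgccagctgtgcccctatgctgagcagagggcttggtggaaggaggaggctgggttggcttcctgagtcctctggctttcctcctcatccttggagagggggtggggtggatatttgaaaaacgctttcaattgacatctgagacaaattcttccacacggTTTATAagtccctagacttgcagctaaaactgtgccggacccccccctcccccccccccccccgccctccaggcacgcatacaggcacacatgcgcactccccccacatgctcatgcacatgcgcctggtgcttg

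Motifs were searched on both strands as exact letters in these windows. They were a T-box site (AGGTGTGA), its core (GGTGTG, contained in that site), a GLI site (TGGGTGGTC) and a TATA element (TATAAA). The Tbx4 window held the TATA letters on the reverse strand, from position 166, as 13.6% of all 32851 promoter windows did on either strand. Neither window held the other letters, which occur in 1.28% (T-box site), 19.0% (core) and 0.253% (GLI site) of all windows. A match or its absence in this window is a description of letters and not of binding. The Tbx18 window had 15 CpG and the Tbx4 window 8, against a median of 7 over all windows.

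Levels were compared between genes per kb of annotated exon. Tbx5 and Tbx15 were the highest. Tbx5 ranged from 41.3 to 48.4 CPM per kb over the 4 libraries and Tbx15 from 33.8 to 48.5, and these ranges overlapped. Tbx3 ranged from 16.7 to 22.02 CPM per kb and Tbx2 from 18.9 to 21.1, again overlapping. Tbx18 ranged from 13.3 to 18.7 CPM per kb, which overlapped Tbx3 but not Tbx2. Tbx4 was lowest, at 1.62 to 2.91 CPM per kb, clear of the other 5. The length used matters for Tbx3: on its longest transcript its mean level was 27.0 CPM per kb rather than 20.3, with a range of 22.2 to 29.3. That range no longer overlapped Tbx2, nor Tbx18 on its own longest transcript (13.5 to 18.9 CPM per kb).

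Set side by side, relatives differed in how even their levels were. Tbx3 over Tbx2, in CPM per kb of annotated exon, was 1.08 and 0.988 in cyclopamine, against 1.05 and 0.882 in control. This ratio depended on the length used: on the longest transcript the mean levels were 27.0 CPM per kb for Tbx3 and 20.3 for Tbx2. Tbx5 over Tbx4 was 17.3 and 19.1 in cyclopamine, against 14.8 and 29.6 in control, where the controls lay on both sides. Tbx15 over Tbx18 was 1.96 and 2.20 in cyclopamine, against 2.54 and 3.23 in control. The last ratio did not overlap between the groups. Its denominator Tbx18 did not overlap either, as given above, while Tbx15 did. With 2 libraries a group an exact two-sided permutation test cannot go below p = 0.333. The ratio was therefore not tested.

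**Figure D3:**
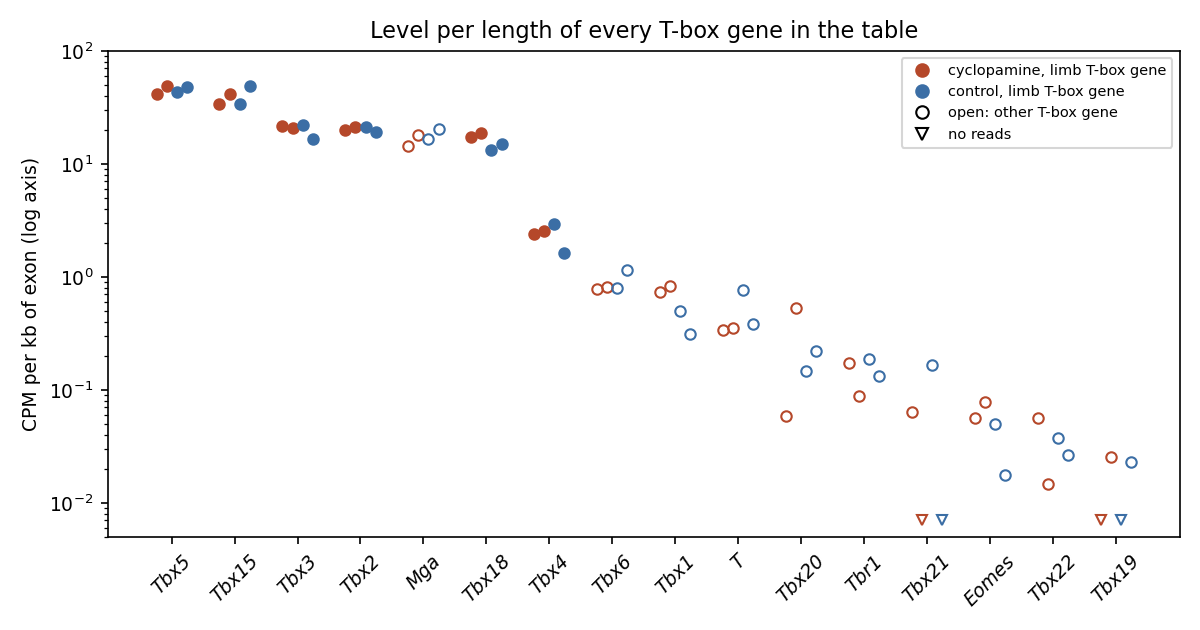
Level per kb of exon (CPM per kb, log axis) of every T-box gene in the table, ordered by mean, with cyclopamine libraries left of control libraries for each gene; triangles mark libraries with no reads. Tbx5 and Tbx15 lie above 30 CPM per kb, Tbx4 between 1.62 and 2.91, and the T-box genes outside the 6, except Mga, lie below Tbx4.

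Apart from Mga, the rest of the T-box family was measured at lower levels per kb than all 6 limb genes. Of 11 further family genes listed, 10 were in the table, 5 passed the filter and 0 of these passed the test, beside 0.28% of all genes tested. Mga, which encodes a large MAX partner protein with a T-box and is widely expressed, measured 221 and 274 CPM in cyclopamine, against 253 and 312 CPM in control (log2 fold change -0.19, SE 0.17). Tbx1, known from the pharyngeal region and from muscle progenitors, measured 2.60 and 2.92 CPM in cyclopamine, against 1.75 and 1.10 CPM in control. It did not pass in limma, with a value of 0.78 on the log2 scale (SE 0.39, adjusted p = 0.878). Tbx20, a heart gene, measured 0.71 and 6.32 CPM in cyclopamine, against 1.75 and 2.64 CPM in control, in the same order of libraries as Myh6 and Tnnt2. Brachyury (T) measured 0.789 and 0.81 CPM in cyclopamine, against 1.75 and 0.882 CPM in control. Tbx19, Tbx21, Tbx22, Eomes and Tbr1 lay under the filter, and Tbx10 was not found under that name among the 17568 genes.

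Some genes known to act with the T-box factors passed the test. Other lists held more of the genes that fell, with 7 of 8 tested neural markers and 3 of 4 Hedgehog targets. All 7 neural calls ended in limma without a filter on low values, and also without an intensity trend. Zic1 did not pass in DESeq2 (adjusted p = 0.99995), nor Pou3f2 in the quasi-likelihood test of edgeR (adjusted p = 0.0571). The 3 Hedgehog target calls ended without the trend, and without the filter only that of Gli1 held (limma adjusted p = 0.0198). Of 9 genes of the TBX5 and FGF outgrowth loop, 2 fell, beside 0.236% of all genes tested that fell. Values lay below 0 for 8 of the 9, and for 6647 of 13568 genes tested. Fgf8, the ridge growth factor that sustains outgrowth, measured 10.18 and 9.40 CPM in cyclopamine, against 30.8 and 32.3 CPM in control (log2 fold change -1.64, SE 0.20, limma adjusted p = 0.000973). Sall1, a zinc finger factor gene, measured 51.2 and 49.0 CPM in cyclopamine, against 116 and 125 CPM in control (log2 fold change -1.25, SE 0.15, limma adjusted p = 0.000921). The calls of Fgf8 and Sall1 ended without a filter on low values (limma adjusted p = 0.0684 and 0.0530). They also ended without an intensity trend (limma adjusted p = 0.114 and 0.214). Fgf10, the direct output of TBX5, measured 46.0 and 39.7 CPM in cyclopamine, against 68.0 and 62.2 CPM in control. It did not pass in limma, with a value of -0.60 on the log2 scale (SE 0.16, adjusted p = 0.255), nor did Sall4, the gene of a factor that cooperates with TBX5 (-0.58, SE 0.16, adjusted p = 0.289). Both genes lay lower in both cyclopamine libraries, as did 15.8% of all genes tested, while Tbx5 itself had interleaved values.

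Among genes that TBX2 or TBX3 repress in other settings, 1 of 7 tested fell and 0 rose. Of all genes tested, 0.236% fell and 0.0442% rose. The listed gene that fell was Grem1, a BMP antagonist gene that TBX2 limits in the late limb bud. It measured 22.7 and 24.8 CPM in cyclopamine, against 42.8 and 45.3 CPM in control (log2 fold change -0.88, SE 0.17, limma adjusted p = 0.0434). Its call ended without control 1 (limma adjusted p = 0.0582), without control 2 (0.144) and without cyclopamine 1 (0.0594). It also ended with scaling by library totals (0.0775), with a pseudocount of 2 (0.0513), without a filter on low values (0.246) and without an intensity trend (0.355). Cdkn1a, the cell cycle inhibitor gene, measured 55.2 and 33.7 CPM in cyclopamine, against 55.8 and 47.1 CPM in control, and Gja5, a gap junction gene, had a log2 fold change of 0.35 (SE 0.36).

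The list of BMP inputs of Tbx2 and Tbx3 also holds the BMP response genes Msx1 and Msx2. Of its 11 genes 0 passed, beside 0.28% of all genes tested, and the median log2 fold change was 0.01. Msx2, a homeobox target of BMP signalling, measured 97.7 and 82.6 CPM in cyclopamine, against 81.1 and 48.0 CPM in control (log2 fold change 0.52, SE 0.20, limma adjusted p = 0.683). Bmp7, a ligand gene, had a value of -0.33 (SE 0.16). Control 2 was the lowest library for Msx2, as it was for Tbx3 and Tbx2. The 5 Hedgehog and HAND2 partners of TBX3 also included 0 that passed, beside the same 0.28% of all genes tested. Hand2, a posterior mesenchyme factor gene, measured 69.3 and 60.0 CPM in cyclopamine, against 90.1 and 96.0 CPM in control (log2 fold change -0.53, SE 0.15, limma adjusted p = 0.332). For Gli3, the main Hedgehog-regulated repressor gene, the value was 0.11 (SE 0.16), and for Shh, the ligand gene, it was -0.58 (SE 0.29).

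Upstream of Tbx5, 0 of 16 forelimb field inputs passed, beside 0.28% of all genes tested. At that share, a count of 0 does not show that a list this short was unchanged. These inputs comprise retinoic acid, HOX, MEIS and WNT genes. Their median log2 fold change was 0.09. Tcf7, a WNT pathway factor gene that acts with Tbx5 in limb initiation, measured 70.4 and 55.7 CPM in cyclopamine, against 85.2 and 77.1 CPM in control (log2 fold change -0.37, SE 0.16, limma adjusted p = 0.810). Meis1, a proximal limb factor gene, had a value of 0.29 (SE 0.15) and Hoxc9 of -0.59 (SE 0.31).

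Of the 10 shoulder girdle genes listed with TBX15, 0 passed, beside 0.28% of all genes tested. Values lay above 0 for 8 of the 10, and for 6921 of 13568 genes tested. The median of the list was 0.08. Pax1, a paired box gene of the shoulder blade, measured 18.5 and 22.7 CPM in cyclopamine, against 7.63 and 13.6 CPM in control (log2 fold change 0.97, SE 0.26, limma adjusted p = 0.255). Shox2, needed for the upper arm, had a value of 0.42 (SE 0.16, adjusted p = 0.661), close to that of Tbx18. Alx4, an anterior limb homeobox gene, had one of 0.04 (SE 0.15).

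**Figure D4:**
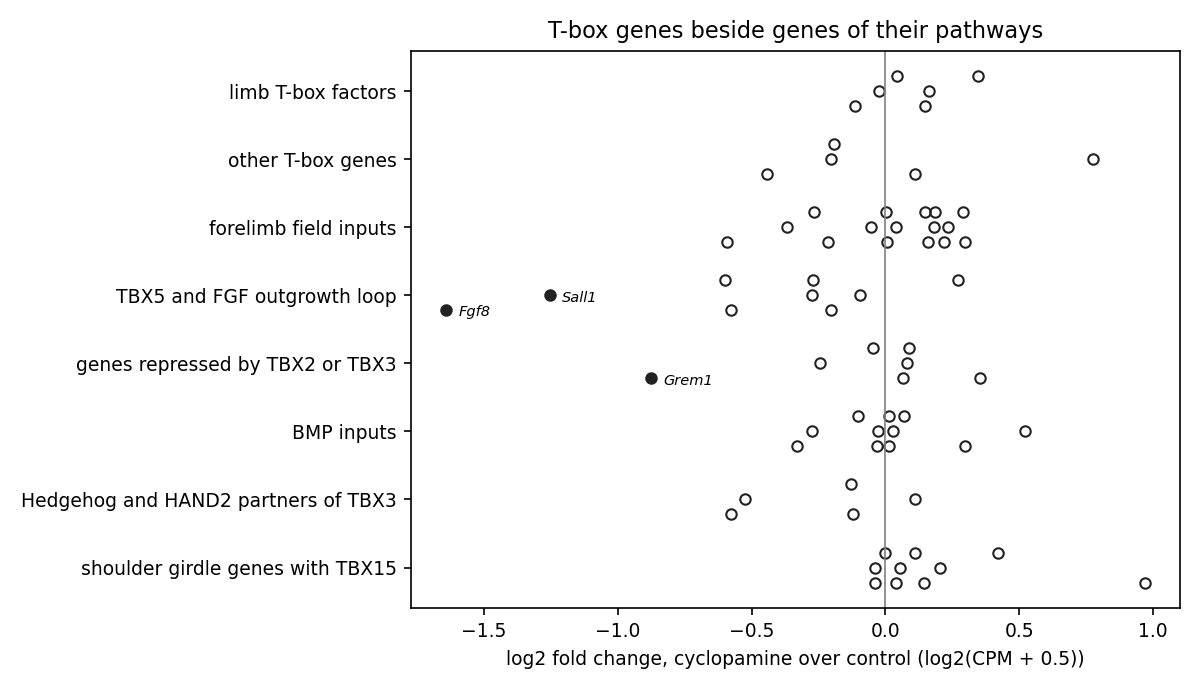
Log2 fold change of cyclopamine over control for each tested gene of the T-box lists and of their pathways; filled, named points passed an adjusted p of 0.05 in limma and open points did not, and the vertical offset only separates points. The limb T-box genes lie between -0.11 and 0.35 with none filled, and the filled points are Fgf8, Sall1 and Grem1.

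The summed level of the 6 T-box genes was 627 and 692 CPM in cyclopamine, against 623 and 662 CPM in control. The sums overlapped between the groups, with both second libraries above both first ones. Somite and myoblast markers, which include tissue where Tbx18 is also expressed, summed to 54.9 and 42.6 CPM in cyclopamine, against 46.6 and 51.4 CPM in control, also interleaved. Limb ectoderm markers summed to 238 and 204 CPM in cyclopamine, against 252 and 246 CPM in control, and this list contains Fgf8. Endothelium markers summed to 370 and 421 CPM in cyclopamine, against 333 and 344 CPM in control. Hindlimb markers summed to 4.34 and 6.64 CPM in cyclopamine, against 7.22 and 3.53 CPM in control. The part of any of these tissues in the T-box levels was not tested.

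**Figure D5:**
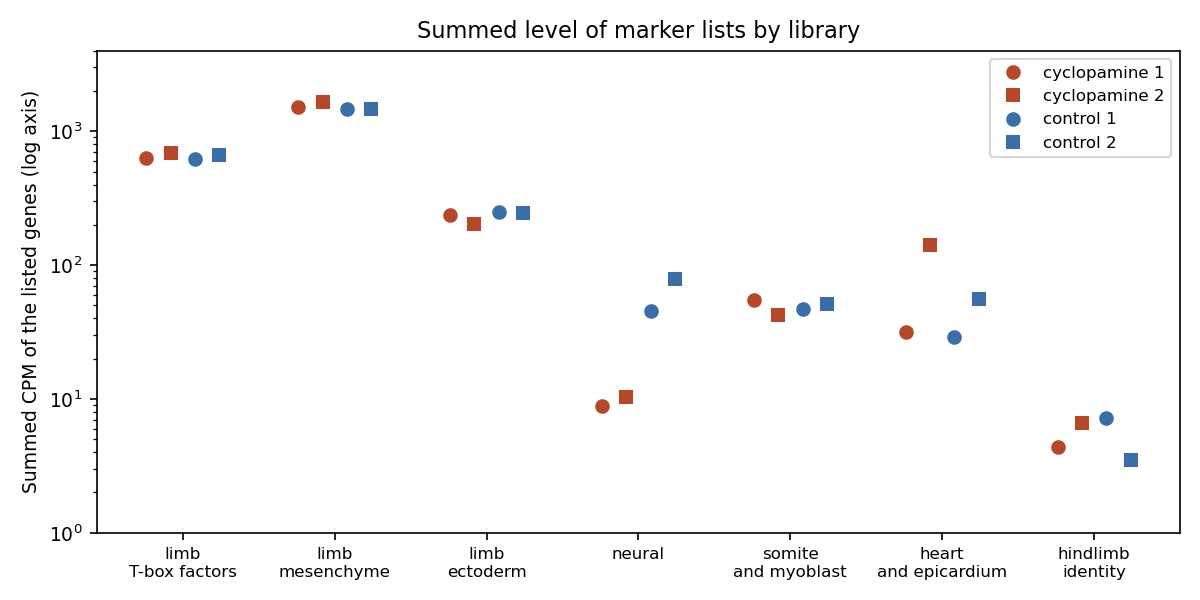
Summed CPM (log axis) of the limb T-box genes and of marker lists in each library, cyclopamine left of control. T-box and mesenchyme sums differ little between libraries, neural markers are lower in cyclopamine (8.84 and 10.29 CPM, against 45.4 and 79.3 CPM in control), and heart markers are highest in cyclopamine 2 at 141 CPM.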

How the data were processed

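Per the labels, RNA of cultured limb buds was sequenced on SOLiD. The authors deposited a normalized signal per gene and library, in counts per 1000000 of an effective library size. The submitters' processing notes name mm10, TopHat2 2.0.9, HTSeq 0.5.4p5, Bowtie, edgeR 3.4.2 and SAMtools without saying what each did. No annotation or strand setting is named in the sources used here. Every signal value was a whole multiple of 1 read (100% of values within 0.01), so reads were recovered. The authors' deposited table of their own comparison, per the file headers, gives each gene's log2 fold change, average log2 CPM, p-value and FDR.

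A gene was compared if its mean reached 1 CPM, with limma 3.58.1 (R 4.3.3) on log2(CPM + 0.5), which understates changes of low genes, an intensity trend and Benjamini-Hochberg adjustment over 13568 genes. The limma and edgeR fits were also run on simulated counts. Intervals of log2 fold changes come from limma and the spread between libraries. Poisson intervals of a single library and the 3-read floor cover counting error only, since reads without molecular identifiers are not independent. Alternatives were edgeR 4.0.16, DESeq2 1.42.0, other scalings, filters and pseudocounts, a replicate block and each library left out. Levels per kb used the union of GENCODE exons on the same build. Named are all 6 members, of each list the genes that passed or else up to 3 with the smallest p, up to 2 neighbours per locus within 500 kb with the smallest p, and the 2 genes of nearest pattern per member. Some genes of these lists are not reported here. Other list genes were named as examples after their values were seen. Members and lists were chosen with earlier results of these data known.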

Additional observations from a re-analysis of the deposited data

How the results depend on the processing

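Under the 15 alternatives tried, 0 of the 6 T-box genes passed in each. Their median log2 fold change, 0.10 with all libraries, ran from 0.01 without control 2 to 0.19 without control 1. Leaving out control 2 turned the sign of every T-box gene but Tbx18, leaving out cyclopamine 1 that of Tbx5 and Tbx15, and leaving out control 1 or cyclopamine 2 that of none. Over these fits the values ran from -0.0296 to 0.12 for Tbx2, -0.0507 to 0.35 for Tbx3, -0.23 to 0.56 for Tbx4, -0.14 to 0.0904 for Tbx5 and -0.37 to 0.15 for Tbx15. Tbx18 ran from 0.26 to 0.43. With the block for the replicate number, limma adjusted p ran from 0.161 for Tbx18 to 0.974 for Tbx5. The labels tie the number to no litter or day, the deviations of same-numbered libraries correlated at 0.27, and with 2 numbers this does not show pairing.

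Over all genes, the count of 38 became 351 with the replicate block, 80 with edgeR's exact test on reads of all genes, 20 scaled by library totals, and 2 in limma without a filter on low values. Without the trend limma called 0, and 837 at an unadjusted p under 0.05; edgeR's quasi-likelihood test called 40 and DESeq2 52. Leaving out a library gave 43 to 122. The cause was not tested. Tbx4 had the fewest reads of the 6, at 75 to 106 per library.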

Other observations

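Within 500 kb of a member's start, 17 annotated genes other than the 6 were in the table. Of these, 10 were tested and 0 passed in limma, beside 0.28% of all genes tested. Their log2 fold changes ran from -0.64 to 0.09, with a median of -0.07. Downstream of Tbx4, Brip1, a DNA repair helicase gene, measured 24.3 and 29.7 CPM in cyclopamine, against 28.9 and 38.9 CPM in control (log2 fold change -0.31, SE 0.19, limma adjusted p = 0.973). Near Tbx3 and Tbx5, Gm10390 had a value of -0.64 (SE 0.46, adjusted p = 0.997), and Rbm19, a ribosome biogenesis gene, of 0.06 (SE 0.19). Near Tbx15, Wars2, a mitochondrial tRNA synthetase gene, had a value of -0.10 (SE 0.18), and near Tbx18, 4922501C03Rik, named Cep162 in GENCODE, of 0.09 (SE 0.20). Gm16065, named Tbx3os2 in GENCODE, measured 0.789 and 1.13 CPM in cyclopamine, against 1.44 and 0.441 CPM in control, and lay under the filter.

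For each T-box gene, the genes of similar mean level with the nearest pattern over the 4 libraries were found by Euclidean distance of centred log2 values. With 4 libraries these distances describe the libraries only. They were Drg2 and Tbc1d9b for Tbx2, Lrp5 and Dsp for Tbx3, Sirt3 and Plekho2 for Tbx4, Ep400 and Pogk for Tbx5, Ppp1r9a and Rif1 for Tbx15, and Flrt3 and Cxadr for Tbx18. The distances ran from 0.0104 for Ep400 with Tbx5 to 0.0467 for Plekho2 with Tbx4. Flrt3, a membrane protein gene, measured 163 and 174 CPM in cyclopamine, against 126 and 141 CPM in control. Ep400, a chromatin remodelling gene, measured 235 and 275 CPM in cyclopamine, against 245 and 275 CPM in control.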
